A study of Mus musculus with 661 samples.

Results

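The 10 genes described here were chosen by the size of their old over young shift in MSC-L-like cells, out of 45808 genes counted in the series. MSC-L-like cells are the stromal cells of bone that fall into the non-endothelial clusters 1 and 2 (M1 and M2). They are named after the leptin receptor positive mesenchymal stromal cells (MSC-L) that lie around marrow sinusoids. *Snhg11*, *Poln*, *Shisa3*, *Gdf10* and *Traf1* are the 5 genes with the largest log2 increases in old cells, and *Btbd3*, *Tyw1*, *Pigg*, *Rassf5* and *Tubb6* the 5 with the largest decreases. To be ranked, a gene needed 1000 or more counts in MSC-L-like cells, a count in 25% or more of the young or of the old cells, and 1 direction in both ranges of library numbers that held these cells.

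Single cells were sorted into plates from the endosteum and the central marrow of wild type C57BL/6 mice. The mice were young (about 2 months) or old (about 24 months) and untreated. After the authors' quality filter, 336 young and 325 old cells remained. MSC-L were sorted from the marrow, while the Sca-1 positive MSC-S and the osteoprogenitors, split by surface PDGFRα into mOPr and OPr, were sorted from the endosteum, as were arteriolar endothelial cells (AEC); sinusoidal ones (SEC) came from the marrow. The paper gives several mice at each age for these cells, but the labels number cells and name no mouse. Each age of a population was therefore treated as 1 sample, no difference has a replicate check, and no test was made. Of 136 MSC-L-like cells 56 were young and 80 old, with a median of 464612 (216816 to 1157197) nuclear counts per cell in young and 387939 (87576 to 1488549) in old.

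The label of these cells was checked against marker genes. All 13 MSC-L markers were above 100 CPM (counts of a gene after scaling the summed nuclear counts of the group to a common total of 10⁶) at both ages, and together they made up 62683 CPM in young and 52484 CPM in old cells, with *Cxcl12* most abundant (47927 and 40356 CPM). Of 15 hematopoietic markers, 5 had no count in young and 3 none in old MSC-L-like cells, and their sum was 21.0 CPM in young (most abundant *Coro1a*, 10.4 CPM) and 33.7 CPM in old (*Fcer1g*, 13.4 CPM). *Ptprc*, which encodes the pan-leukocyte antigen CD45, stood at 0.0776 and 0.483 CPM, and no MSC-L-like cell carried 7 or more of these markers at 10 CPM. The 10 endothelial markers summed to 88.7 CPM in young and 100.4 CPM in old, mostly *Eng* (65.1 and 88.2 CPM), with *Cdh5* at 0.233 and 0.398 CPM. The 10 osteolineage markers summed to 11498 CPM in young, mostly *Ibsp* (7578 CPM), and 8915 CPM in old, where *Spp1* was highest (4933 CPM). The 5 markers of Sca-1 positive mesenchymal cells were each under 10 CPM and summed to 2.41 CPM in young and 11.0 CPM in old, with *Ly6a* at 1.44 and 9.49 CPM. Immediate early genes, 15 in all, summed to 6918 CPM in young and 14367 CPM in old cells, with *Fos* at 2078 and 7550 CPM; in range 1 of the library numbers the sums were 9766 and 8985 CPM and in range 2 4600 and 18289 CPM, and their part in the shifts below was not tested. Y-linked transcripts were found in 53 of 56 young and 78 of 80 old MSC-L-like cells.

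As background, leptin receptor positive stromal cells are the main source of CXCL12 and stem cell factor for blood stem cells, and the precursors of marrow fat and of some bone cells. The 10 genes do not form a pathway. Those higher in old cells cover a secreted growth factor of the bone morphogenetic protein (BMP) family, a regulator of Wnt and FGF receptors, an adaptor of tumor necrosis factor receptors, a DNA polymerase and a host transcript of small nucleolar RNAs, and those lower in old cells cover RNA and lipid anchor synthesis, Ras signaling, a BTB domain protein and a tubulin.

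In the contrast that chose the genes, all 10 were past a log2 old over young ratio of 1, computed with a pseudocount of 1 CPM, which follows from the choice. Of the 4144 genes that met the same filter, 11.1% were past that ratio as higher in old and 8.83% as lower. The increase just inside the choice was that of *Traf1* (log2 ratio 4.14), and the one just outside it that of *Tenm2*, a teneurin (log2 ratio 3.98; 1.24 CPM in young, 34.5 CPM in old). Among the decreases, *Tubb6* was inside (log2 ratio -3.10) and *Abcc9*, a subunit of potassium channels, outside (log2 ratio -2.98; 68.7 CPM in young, 7.84 CPM in old). The limits of the choice therefore fall between genes of similar size of shift, and *Btbd3* (log2 ratio -4.76) stood apart from the other decreases.

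*Snhg11* and *Gdf10* were the members found in most old cells. *Snhg11*, a host gene of small nucleolar RNAs, was at 283.7 CPM (278.1 to 289.3, exact 95% Poisson interval) in old against 9.93 CPM (8.75 to 11.2) in young cells of the MSC-L-like group. Its lowest, median and highest cell values were 0, 112.5 and 3806 CPM in old and 0, 0 and 411 CPM in young cells. A count of *Snhg11* was present in 63 of 80 old cells (78.8%, 68.2 to 87.1, exact Clopper-Pearson interval) and 13 of 56 young cells (23.2%, 13.0 to 36.4), and single young cells reached well into the old range. Here and below, intervals of CPM treat reads as independent, which PCR reads without molecular identifiers are not, and intervals of shares treat cells as independent draws; both leave out variation between mice. With every cell thinned to 100000 counts, which removes the depth difference and left out 1 old cell, the shares were 73.4% and 16.1%.

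*Gdf10*, a secreted ligand of the BMP family, was at 327.7 CPM (321.8 to 333.8) in old against 16.7 CPM (15.1 to 18.3) in young cells. The lowest, median and highest cells were at 0, 76.1 and 1829 CPM in old and at 0, 0 and 400.2 CPM in young. It was counted in 64 old cells (80%, 69.6 to 88.1) and 13 young cells (23.2%, 13.0 to 36.4), or 70.9% and 14.3% after thinning. For this pair of genes the old level was spread over many cells: the cell with the most counts held 7.59% of the old *Snhg11* counts and 10.0% of those of *Gdf10*. The young level rested on few, as 1 young cell held 47.3% and 30.7%.

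*Shisa3*, *Poln* and *Traf1* were instead found in a minority of old cells, and the median cell was at 0 CPM at both ages. *Shisa3*, which holds Wnt and FGF receptors back in the endoplasmic reticulum, was at 66.9 CPM (64.3 to 69.7) in old against 2.13 CPM (1.61 to 2.78) in young cells. It had a count in 34 old (42.5%, 31.5 to 54.1) and 4 young cells (7.14%, 1.98 to 17.3), with highest cells at 639 and 71.2 CPM. Among the 28 old cells with 10 CPM or more of *Shisa3* the median was 135.7 CPM, so a subset of cells carried the level.

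*Poln*, a DNA polymerase of low fidelity that can copy past damaged bases, was at 48.2 CPM (46 to 50.6) in old against 1.05 CPM (0.690 to 1.52) in young cells, from 1698 and 27 counts. It was counted in 28 old (35%, 24.7 to 46.5) and 7 young cells (12.5%, 5.18 to 24.1), and the highest cell was at 1733 CPM in old against 32.6 CPM in young. *Traf1*, an adaptor that tumor necrosis factor receptors recruit and a target of NF-κB, was at 29 CPM (27.2 to 30.8) in old against 0.698 CPM (0.414 to 1.10) in young cells, from 1020 and 18 counts. A count of *Traf1* occurred in 25 old (31.2%, 21.3 to 42.6) and 4 young cells (7.14%, 1.98 to 17.3), but only 12 old cells reached 10 CPM. Of the old counts of *Traf1*, 29.7% came from the cell with the most counts, which was not the cell with the most CPM (329.7 CPM, 17.3% of the counts), while for *Poln* 1 cell had the most of both (24.9%). Without the cell with the most CPM in each age the log2 ratios of *Traf1* and *Poln* were 4.18 and 4.56.

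**Figure D1:**
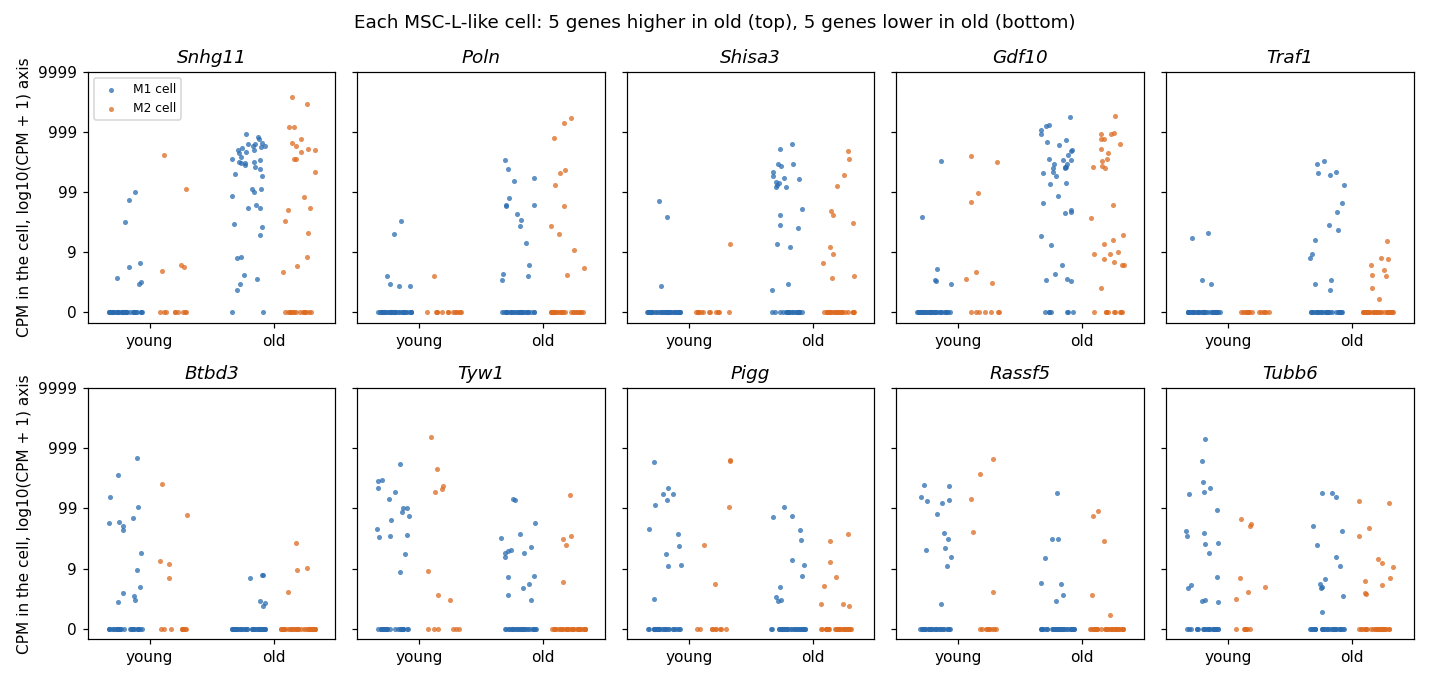
Each point is 1 MSC-L-like cell (56 young, 80 old; M1 in blue, M2 in orange), and the vertical axis is CPM in the cell on a log10(CPM + 1) scale, with cells without a count at 0. *Snhg11* and *Gdf10* are above 0 in 63 and 64 old cells, whereas the genes lower in old (bottom row) are at 0 in most cells of both ages.

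The decreases were unlike *Snhg11* and *Gdf10*: in young cells each of these genes was counted in under 50% of the cells, and the median cell was at 0 CPM at both ages. *Btbd3*, a protein with a BTB domain known for orienting dendrites of neurons, was at 47 CPM (44.4 to 49.8) in young and 0.767 CPM (0.505 to 1.12) in old cells. Counts were found in 21 young (37.5%, 24.9 to 51.5) and 10 old cells (12.5%, 6.16 to 21.8), with highest cells at 681 and 25.5 CPM. Of the old cells, 1 reached 10 CPM, against 14 of the young. A single young cell held 47.4% of the young counts, and the log2 ratio was -4.05 with the highest cell of each age left out.

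*Tyw1*, an enzyme of wybutosine synthesis that modifies phenylalanine tRNA, was at 94.3 CPM (90.5 to 98.1) in young and 9.29 CPM (8.31 to 10.4) in old cells. It was counted in 25 young (44.6%, 31.3 to 58.5) and 22 old cells (27.5%, 18.1 to 38.6), and the highest cells were at 1551 and 166 CPM. A single young cell held 42.7% of the counts, and without the highest cells the log2 ratio of *Tyw1* was -2.64. For this gene the ages differed more in the level of the positive cells than in their number: among cells with 10 CPM or more the median was 140.9 CPM in 21 young and 29.8 CPM in 15 old cells.

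*Pigg*, an ethanolamine phosphate transferase that acts on the glycosylphosphatidylinositol (GPI) anchor, showed the same form. It was at 56.7 CPM (53.8 to 59.7) in young and 5.45 CPM (4.71 to 6.28) in old cells, with counts in 18 young (32.1%, 20.3 to 46) and 20 old cells (25.0%, 16.0 to 35.9). The highest cells stood at 644 and 103.6 CPM. *Rassf5*, an effector of Ras and Rap that binds the kinases of the Hippo pathway, was at 47.5 CPM (44.8 to 50.2) in young and 4.46 CPM (3.79 to 5.21) in old cells. Counts of *Rassf5* were present in 19 young (33.9%, 21.8 to 47.8) and 13 old cells (16.2%, 8.95 to 26.2), with highest cells at 664 and 178 CPM.

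*Tubb6*, a β-tubulin, was the decrease that depended most on 1 cell. It was at 99.1 CPM (95.3 to 103.1) in young and 10.7 CPM (9.63 to 11.8) in old cells, but 1 young M1 cell, at 1414 CPM, held 64% of the young counts. Without the highest cell of each age the log2 ratio was -1.90, and as the mean of CPM over cells, which weights cells equally, it was -2.09. Equal numbers of cells, 26 young (46.4%, 33 to 60.3) and 26 old (32.5%, 22.4 to 43.9), had a count, and the highest old cell was at 181 CPM.

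Many old cells carried several of the 5 genes higher in old cells. At 10 CPM or more, 5 of 80 old cells carried none of them, 23 carried 1, 20 carried 2, 25 carried 3, 6 carried 4 and 1 carried all 5, while 39 of 56 young cells carried none, 16 carried 1 and 1 carried 2. The genes were chosen in these cells, so differences between the ages in genes carried per cell, here and below, largely follow from the choice. Of the 28 old cells with *Shisa3*, 24 (85.7%) also had *Snhg11*, which 67.5% of all old cells had. Among these 28 cells 20 were M1 cells, and 81.8% of old M1 cells had *Snhg11*. The pair of *Snhg11* and *Gdf10* was near the overall share: *Gdf10* was in 66.7% of the old cells with *Snhg11* and in 63.75% of all old cells. *Poln* and *Shisa3* shared 5 cells, 22.7% of the 22 cells with *Poln* and 17.9% of those with *Shisa3*. *Poln* was in 27.5% and *Shisa3* in 35% of all old cells, and *Shisa3* was in 6 of the 12 cells with *Traf1* (50%). Of these 12 cells 11 were M1 cells, and 45.5% of old M1 cells had *Shisa3*. Of young cells, 10 carried none of the 5 genes lower in old, 17 carried 1, 22 carried 2, 6 carried 3 and 1 carried 4. *Btbd3* and *Tyw1* shared 9 young cells (64.3% of the 14 with *Btbd3*, 42.9% of the 21 with *Tyw1*), where 37.5% of all young cells had *Tyw1*. *Btbd3* and *Rassf5* shared 1, and *Rassf5* was in 46.7% of the young cells with *Pigg* and in 30.4% of all young cells. In old cells 43 carried none of these genes, 28 carried 1, 8 carried 2 and 1 carried 3.

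M1 and M2 are the clusters that make up MSC-L-like cells, and M2 held 14 young and 36 old, M1 42 young and 44 old cells. M2 cells were shallower, at a median of 282838 nuclear counts in M2 and 461150 in M1, and had a higher mitochondrial share of counts (median 2.44% against 1.22%). Among old cells 9 of the 10 genes had 100 or more counts in 5 or more cells; 1 was past a log2 M2 over M1 ratio of 1 as higher in M2, where 15.8% of all genes were, and 3 as lower, where 19.3% were. *Traf1* stood out by size: it was at 46.2 CPM (43.4 to 49.1) in old M1 and 1.12 CPM (0.625 to 1.84) in old M2 cells (log2 M2 over M1 ratio -4.48), and 11 of the 12 old cells with 10 CPM or more were M1 cells. *Poln* had the opposite order, 28.8 CPM (26.6 to 31.1) in old M1 and 79.7 CPM (75 to 84.7) in old M2, although its detected share was alike (36.4% and 33.3%) and 1 M2 cell held 39.4% of the M2 counts.

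Pooled over the library ranges, *Snhg11* and *Gdf10* were close between the old clusters in summed level. In old M1 and M2 *Snhg11* was at 278.4 and 292.2 CPM, and *Gdf10* at 312.4 and 352.6 CPM. *Snhg11* was counted in 42 of 44 old M1 cells (95.5%, 84.5 to 99.4) and 21 of 36 old M2 cells (58.3%, 40.8 to 74.5), or 84.1% and 60% after thinning. The median old M1 cell was at 268.6 CPM of *Snhg11* and 197 CPM of *Gdf10*, and the median old M2 cell at 13.7 and 13.8 CPM, so in M2 like summed levels came from fewer and higher cells. The order for *Snhg11* changed between the lower library numbers (range 1: 264.7 CPM in M1, 130.4 CPM in M2) and the next (range 2: 287.4 and 431.7 CPM). *Shisa3* was at 84.2 CPM in old M1 and 38.9 CPM in old M2, where 1 cell held 59% of the counts.

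In young cells the order of the clusters was another one. Of the 10 genes 7 had enough counts, of which 5 were past a log2 M2 over M1 ratio of 1 as higher in M2 (17% of all genes were) and 1 as lower (29.7% of all genes were). *Tyw1* was at 47.6 CPM (44.6 to 50.6) in young M1 and 288.1 CPM (273.4 to 303.3) in young M2, *Pigg* at 32.7 and 156.3 CPM, and *Rassf5* at 29.9 and 120.5 CPM. Each of these M2 levels rested on few of 14 cells, since the cell with the most counts held 71.9% of the M2 counts of *Tyw1*, 53.1% of those of *Pigg* and 56.7% of those of *Rassf5*. Without the cell with the most CPM in each cluster, the log2 M2 over M1 ratios were 1.28, 2.07 and 1.15. *Tubb6* was lower in young M2 (11.2 CPM, 8.46 to 14.5) than in young M1 (120.3 CPM, 115.7 to 125.1), and *Btbd3* was at 41.4 and 48.4 CPM, but 83.1% and 57.1% of these counts lay in 1 cell, and without the highest cells its ratio was -1.32. By range, *Rassf5* in young M1 and M2 was at 47 and 0 CPM in range 1 and 11.5 and 145 CPM in range 2, and *Pigg* at 30.2 and 33.2 CPM and at 35.3 and 181.3 CPM, so the higher M2 levels of these genes came from range 2.

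Old over young shifts within M1 and M2 largely follow from the choice, which used these cells. Of all genes 13.2% were past a log2 ratio of 1 as higher in old and 10.9% as lower in M1, and 29.3% and 19% in M2. *Tubb6* was within that ratio in M2 (11.2 CPM in young, 9.16 CPM in old, log2 ratio -0.26). *Traf1* in M2 had no count in young, where 3 counts would make 0.600 CPM, against 15 counts in old, at least 1.86-fold higher, a lower bound that is under a log2 ratio of 1. Its shift over both clusters came from M1. In M1 the log2 ratios of *Tyw1*, *Pigg* and *Rassf5* were -1.97, -2.08 and -2.60, and in M2 -5.41, -5.31 and -4.33.

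The library numbers in the labels fall into 3 ranges, of which range 1, the lowest numbers, held 24 young and 32 old and range 2 held 32 young and 48 old MSC-L-like cells. Each gene had the same direction in both ranges, which the choice required. *Snhg11*, *Btbd3* and *Tyw1* had similar log2 ratios in ranges 1 and 2 (4.86 and 4.60, -4.78 and -4.68, -3.35 and -3.16). For *Snhg11* 1 young cell held 55.56% of the young counts of range 1, and 1 held 65.76% of those of range 2. For *Btbd3* these shares were 77.99% and 36.13%, and for *Tyw1* 24.46% and 66.84%. How far the similar ratios rest on these cells was not tested. *Gdf10* had the widest gap, with 30.4 CPM in young and 233.5 CPM in old cells of range 1 and 5.49 and 396.4 CPM in range 2 (log2 ratios 2.90 and 5.94). In M2 cells of range 1, where only 3 young cells were found, *Gdf10* was at 271.8 CPM in young and 256.8 CPM in old, and *Rassf5* had no count in young, where 3 counts would make 3.56 CPM, and 5.95 CPM in old cells, against the pooled direction. *Tubb6* in M2 was lower in old in range 1 (log2 ratio -1.89) and higher in range 2 (0.59). In M1 cells of range 2 *Tyw1* was at 23 CPM in young and 15.5 CPM in old (log2 ratio -0.54).

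Sorting also split these cells: 51 young and 56 old had been sorted as marrow MSC-L, and 5 young and 24 old as endosteal mOPr or OPr. *Snhg11* was at 346.2 CPM (337.8 to 354.6) in old cells sorted as MSC-L and 210.2 CPM (203.2 to 217.3) in those sorted as mOPr or OPr, and *Gdf10* at 230.6 CPM (223.8 to 237.5) and 442.0 CPM (431.8 to 452.3), so these genes had opposite orders. The 5 young cells sorted as mOPr or OPr carried much of 2 of the decreases. They held *Tubb6* at 440.9 CPM and *Btbd3* at 175.8 CPM, with 98.7% and 86.8% of those counts in 1 cell, whereas in young cells sorted as MSC-L the levels were 40.8 and 25.0 CPM. *Tubb6* among cells sorted as MSC-L was at 15.8 CPM in old (log2 ratio -1.31), less than over all MSC-L-like cells.

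In the other populations, whose cells were not used to choose the genes, a minority of the genes with enough counts were past a log2 ratio of 1 in the MSC-L-like direction, and ratios of smaller size are not counted here. OPr-like cells (clusters 3 to 5; 55 young, 39 old) had 8 genes with enough counts, of which *Traf1* and *Tyw1* were past a log2 ratio of 1 in the MSC-L-like direction and *Gdf10* and *Rassf5* in the opposite one; over all genes 22.5% were past it as higher in old and 22.9% as lower. *Traf1* was at 71.9 CPM in old against 13.6 CPM in young OPr-like cells, but 1 cell held 86.0% of the old and 1 cell 99.3% of the young counts. In old OPr-like cells 8 had 7 or more hematopoietic markers, and with these left out the log2 ratio of *Traf1* was -1.02. Without the cell with the most CPM in each age it was 3.36. The direction of *Traf1* also differed between range 1 (-5.34) and range 2 (6.67). *Rassf5*, which leukocytes express, was at 28.4 CPM (26.1 to 30.8) in old against 1.95 CPM (1.49 to 2.51) in young OPr-like cells, from 5 and 6 cells with a count, with a log2 ratio of 2.87 without the marker-carrying cells. *Gdf10* was at 109.3 CPM (105.7 to 113.1) in young and 50.1 CPM (47 to 53.3) in old, with log2 ratios of -4.17 in range 1 and 0.33 in range 2, and *Tyw1* at 31.2 and 13.2 CPM with -5.72 and 0.015, so neither held within both ranges, and without the marker-carrying cells the ratios were -0.67 and -0.79.

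MSC-S-like cells (clusters 6 to 16; 71 young, 53 old) had 8 genes with enough counts, and *Snhg11*, *Gdf10* and *Btbd3* were past a log2 ratio of 1 in the MSC-L-like direction, against 8.01% of all genes as higher and 13.2% as lower in old. *Gdf10* was at 421.4 CPM (414.9 to 428.0) in old against 109.7 CPM (106.7 to 112.8) in young cells of this group, and it was higher in old in both ranges (log2 ratios 2.21 and 3.48). The lowest, median and highest MSC-S-like cells were at 0, 0 and 6732 CPM of *Gdf10* in old and at 0, 0 and 2767 CPM in young, with counts in 23 of 53 old and 26 of 71 young cells. *Snhg11* was at 9.40 CPM in old against 0.357 CPM in young, at a level far under that of old MSC-L-like cells. It was higher in old in both ranges (3.71 and 2.56), but in range 1 a single cell of 16 held all 126 old counts, while in range 2 13 of 37 old cells had a count. *Btbd3* was at 69.7 CPM in young and 23.6 CPM in old, with log2 ratios of 0.30 in range 1 and -2.70 in range 2. *Tubb6* was highest here and alike in both ages, at 416.6 CPM (410.6 to 422.6) in young and 412.6 CPM (406.1 to 419.2) in old, with counts in 64 of 71 and 48 of 53 cells.

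In endothelial cells the genes past the ratio varied by group, and these differences were not tested. In AEC-like cells (endothelial clusters 3 and 4; 50 young, 69 old) *Tyw1* and *Tubb6* were past a log2 ratio of 1 in the MSC-L-like direction and *Gdf10* and *Pigg* in the opposite one, of 6 genes with enough counts, where 12.1% of all genes were higher and 11.3% lower in old. *Pigg* was at 47.1 CPM (44.7 to 49.6) in old against 6.58 CPM (5.57 to 7.72) in young AEC-like cells and higher in old in each of the 3 ranges (log2 ratios 2.23, 3.00 and 3.25), the reverse of its order in MSC-L-like cells. No AEC-like cell held more than 15.7% of the old *Pigg* counts, and 18 of 69 old and 6 of 50 young cells had a count. *Gdf10* in young AEC-like cells came from 1 cell, which held 97.6% of the counts. *Tubb6* was at 267.2 CPM in young and 75.7 CPM in old AEC-like cells (log2 ratios -2.15, -1.75 and 2.72 in the ranges), and *Tyw1* at 34 and 11.3 CPM (-3.05, -0.49 and 1.25).

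In SEC-like cells (endothelial cluster 7; 61 young, 44 old, all of range 3) 1 of 6 genes with enough counts was past a log2 ratio of 1, *Snhg11* at 12.7 CPM in old against 0.917 CPM in young, and 1 cell held 96.3% of the old counts; without the highest cells its ratio was -0.31. Of all genes 11.4% were past this ratio as higher and 10.4% as lower in old. *Btbd3* was at 136.7 CPM (131.4 to 142.1) in young and 70.0 CPM (65.5 to 74.7) in old SEC-like cells, the highest of its 12 group levels, with counts in 48 of 61 and 28 of 44 cells. *Traf1*, near 0 in young MSC-L-like cells, was at 41.3 CPM (38.4 to 44.3) in young and 21.8 CPM (19.4 to 24.5) in old SEC-like cells, and at 71.8 CPM (68.4 to 75.3) and 38.1 CPM (35.9 to 40.3) in AEC-like cells. Pooled over ranges, *Traf1* was thus lower in old in both of these endothelial groups, with log2 ratios of -0.89 and -0.90. In range 1 of AEC-like cells it was higher (0.57). In SEC-like cells 1 old cell held 53.9% of the old counts, and without the highest cells the ratio was -1.67. How *Traf1* differs here from MSC-L-like cells was not tested.

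The remaining endothelial cells (clusters 1, 2, 5 and 6; 43 young, 40 old) had all 10 genes with enough counts. *Snhg11*, *Poln* and *Traf1* were past a log2 ratio of 1 in the MSC-L-like direction and *Gdf10*, *Pigg* and *Rassf5* in the opposite one, where 15.0% of all genes were higher and 15.9% lower in old. *Traf1* was at 12.4 CPM in young and 60.8 CPM in old, *Snhg11* at 2.22 and 18.9 CPM (log2 ratio 2.63), with 67.2% of the old counts in 1 cell, and *Pigg* at 16.2 and 49.6 CPM, where 1 old cell held 58.2% of the old counts. *Poln* and *Shisa3* were lower in each other population than in old MSC-L-like cells, and in some of them higher than in young ones. *Poln* stood between 0.263 and 1.13 CPM in OPr-like, MSC-S-like, AEC-like and SEC-like cells of both ages, and *Shisa3* between 0 and 3.32 CPM, and neither had enough counts in any of these 4 populations. In the remaining endothelial cells *Poln* was at 9.88 CPM in old against 0.261 CPM in young (log2 ratio 3.11; 1 count at each age in range 2, 3.45 in range 3), with 50.4% of the old counts in 1 cell, and *Shisa3* at 7.10 CPM against 3.20 CPM (0.95), with 81.6% in 1 old cell. Without the 1 old remaining endothelial cell with 7 or more hematopoietic markers, the log2 ratio was 2.27 for *Poln* and 1.14 for *Rassf5*. Doublets and pericytes were not separated from the remaining endothelial cells. By summed level, old MSC-L-like cells were first of the 12 age and population groups for *Snhg11*, *Poln* and *Shisa3*, old MSC-S-like cells first for *Gdf10* and old MSC-L-like cells second, and for *Tyw1*, *Pigg* and *Rassf5* young MSC-L-like cells were first. Choosing genes by their shift in MSC-L-like cells favors these cells in such an order. For *Btbd3* young SEC-like cells were first, for *Traf1* old OPr-like and young AEC-like cells stood near each other (71.9 and 71.8 CPM), and for *Tubb6* MSC-S-like cells of both ages were highest. Each group is 1 sample, so the order has no replicate check.

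**Figure D2:**
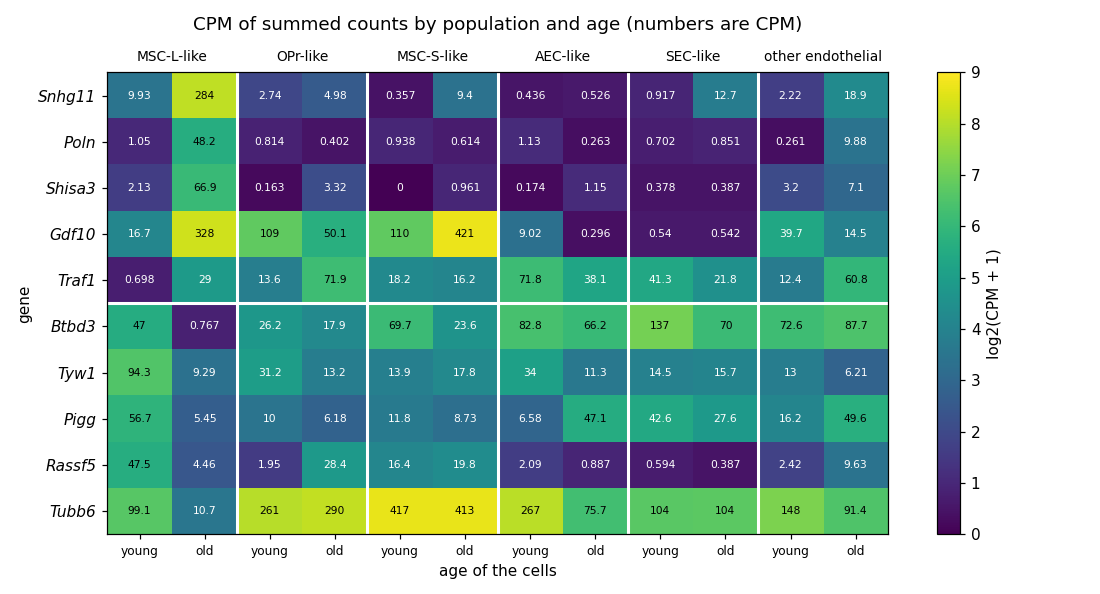
Rows are the 10 genes and columns the young and old cells of 6 populations; the number in each field is the CPM of the summed counts, and the color is log2(CPM + 1). *Poln* and *Shisa3* are brightest in old MSC-L-like cells (48.2 and 66.9 CPM), whereas *Tubb6* is brightest in MSC-S-like cells of both ages (417 and 413 CPM).

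The families and pathways of the genes were read in MSC-L-like cells from lists that leave the 10 genes out, over listed genes with 100 or more counts in 5 or more cells; of all such genes 13.7% were past a log2 ratio of 1 as higher in old and 9.22% as lower, and their median log2 ratio was 0.03. In the BMP and activin list 4 of 27 genes were higher and 2 lower, with a median of 0.30. *Bmp2*, a ligand, was at 46.1 CPM in old against 7.18 CPM in young (log2 ratio 2.53; 2.36 and 2.68 in the ranges), the receptor *Acvr1b* had a ratio of 1.09, the signal transducer *Smad3* 1.39 and the target *Id1* 1.47, while *Bmp6* (-1.04) and *Smad5* (-1.26) were lower in old. *Gdf10* and *Bmp2* thus shared a direction that *Bmp6* did not.

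Of 25 genes of the TRAF and NF-κB list 2 were past the ratio, both higher in old. These were *Rel* (log2 ratio 1.11), an NF-κB subunit, and *Tnfaip3* (1.37; 17.5 CPM in old, 6.13 CPM in young), a feedback inhibitor. The other *Traf* genes of the list with enough counts were within the ratio. Among 14 Shisa, Frizzled and FGF receptor genes *Fzd4* (1.15) and *Fgfr3* (1.36; 212.2 CPM in old, 81.8 CPM in young) were higher and *Shisa4* (-1.24) lower in old. Of 10 snoRNA host genes *Snhg4* (1.11; -0.15 in range 1) and *Snhg20* (1.24) were higher, and of 16 genes of translesion and crosslink repair *Polk* (-1.16), *Fancd2* (-1.66; 1.73 in range 2, and 92.6% of the young counts in 1 cell) and *Fancf* (-1.32) were lower, the direction opposite to that of *Poln*.

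The tRNA modification list had the most genes lower in old, 7 of 26, beside 1 higher, *Mto1* (1.23), and a median of -0.35, but its median was -0.74 in range 1 and 0.29 in range 2. The lower genes were *Trmt6* (-1.66), *Dus3l* (-1.30), *Dus4l* (-1.03), *Adat1* (-1.16), *Ctu1* (-1.19), *Ctu2* (-1.91) and *Elp3* (-1.49), of which *Dus4l* and *Ctu1* were higher in old in range 2. In the GPI anchor list, 27 genes with a median of -0.15 (0.29 in range 1, -0.28 in range 2), *Pigb* (-1.41) and *Pgap1* (-1.03; 0.49 in range 1) were lower and *Pigz* (2.15) higher. Of 16 genes of the RASSF and Hippo list *Rassf2* (2.11), *Rassf8* (1.72) and *Mob1b* (1.69) were higher and *Stk3* (-1.58) lower, so that *Rassf2* and *Rassf8* had the direction opposite to *Rassf5*. Of 17 tubulins and folding cofactors *Tuba4a* (2.95; -0.58 in range 1), *Tubb2a* (1.01), *Tubg2* (1.04) and *Tube1* (2.29, with 95.1% of the old counts in 1 cell) were higher and none lower. Of 10 BTB domain and cullin genes *Btbd8* (1.37) was higher and *Btbd2* (-1.32; 0.22 in range 2) lower.

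By Pearson's correlation of log2(CPM + 1) over the 12 age and population groups, among 8404 genes with 1000 or more counts in MSC-L-like cells, the genes most like each member were as follows, as a description over groups that share libraries and depth. *PISD* (r = 0.886) and *Shisa3* (0.852) were most like *Snhg11*, *Zfp882* (0.897) and *Morf4l1* (0.877) most like *Poln*, and *BE692007* (0.899) and *Rnpc3* (0.899) most like *Shisa3*. For *Gdf10* they were *Errfi1* (0.926) and *Pla2g4a* (0.925), and for *Traf1* *Zfand5* (0.863) and *Dhx38* (0.862). The 12 groups include the young and old MSC-L-like cells that chose the genes, so a shift shared with a member follows in part from the ranking. *Zfp882* had such a shift, with 42.4 CPM in old against 0.931 CPM in young MSC-L-like cells. Among the genes lower in old, *Eif3m* (0.904) and *Nop16* (0.867) were most like *Btbd3*, *Spast* (0.862) and *Gas8* (0.792) most like *Tyw1*, *Sap130* (0.878) and *Rab40c* (0.859) most like *Pigg*, *1700021F05Rik* (0.896) and *RP23-372C7.5* (0.864) most like *Rassf5*, and *Eif5a* (0.909) and *Ahsa1* (0.885) most like *Tubb6*. *Ahsa1* was at 81.1 CPM in young and 18.9 CPM in old MSC-L-like cells. Likeness over groups did not always include the shift: *RP23-372C7.5* was at 41.4 CPM in young and 49.9 CPM in old, and *Errfi1* at 1093 and 1389 CPM.

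By the GENCODE M21 annotation of GRCm38, 4 of the genes lie on chromosome 5, namely *Poln* (chr5:34007179-34169448, minus strand), *Shisa3* (chr5:67607882-67623552, plus), *Pigg* (chr5:108312609-108349355, plus) and *Tyw1* (chr5:130255619-130341563, plus), far from one another and with both directions among them. On chromosome 2 lie *Traf1* (chr2:34941750-34961772, minus), *Btbd3* (chr2:138256565-138589292, plus) and *Snhg11* (chr2:158375638-158386145, plus). *Gdf10* is at chr14:33923587-33937983 (plus), *Rassf5* at chr1:131176410-131245258 (minus) and *Tubb6* at chr18:67390717-67402749 (plus). The counts ignore strand, so reads from bases shared with another gene cannot be assigned to either, and 5 members share exonic bases with an annotated gene.

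*Poln* shares 4.08% of its exonic bases with other genes, among them *Haus3* on the same strand, which was at 30.1 CPM in young and 81.2 CPM in old MSC-L-like cells, a smaller shift in the same direction. *Shisa3* shares 138 exonic bases with *Atp8a1* on the opposite strand, at 0.116 CPM in young and 20.2 CPM in old, so both genes of this locus were higher in old. *Rassf5* shares 78 with *Eif2d* on the opposite strand, at 40.9 CPM in young and 21.8 CPM in old. *Pigg* shares 141 with *Gm43081*, and *Snhg11* shares 133 with the snoRNA gene *Gm25187*, which had no count. How far shared reads enter these levels was not tested.

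Promoter windows of 300 bases, from 250 before to 50 after the RefSeq start of a gene (build GRCm38.p6), were at hand for 8 of the 10 genes, with *Btbd3* and *Tyw1* having 2 windows each. *Pigg* and *Tubb6* had no entry. The *Rassf5* window (chr1:131200136-131200435, minus strand) lies inside the gene as annotated, so it does not cover the annotated start at 131245258. Searched on both strands, the letters TGACGTCA of the cyclic AMP response element occurred in 1 of these windows, 1 of the 2 of *Tyw1*, and in 1.79% of 32841 promoters. The κB motif (8.46% of promoters), TGANTCA, the letters bound by Fos and Jun (7.81%), and TATAAA (13.6%) occurred in none of the windows, which says only that these letters are absent there. The windows of the 2 genes found in most old cells and of *Tyw1* are shown in lower case from 5′ to 3′, with TGACGTCA in capitals: *Snhg11* at chr2:158375463-158375762 (plus strand), *Gdf10* at chr14:33923337-33923636 (plus) and *Tyw1* at chr5:130255369-130255668 (plus).
Snhg11: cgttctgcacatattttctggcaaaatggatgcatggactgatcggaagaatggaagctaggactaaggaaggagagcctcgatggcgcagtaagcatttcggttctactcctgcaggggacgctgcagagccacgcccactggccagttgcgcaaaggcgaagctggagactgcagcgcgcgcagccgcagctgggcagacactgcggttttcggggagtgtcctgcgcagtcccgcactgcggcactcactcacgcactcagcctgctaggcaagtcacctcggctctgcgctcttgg
Gdf10: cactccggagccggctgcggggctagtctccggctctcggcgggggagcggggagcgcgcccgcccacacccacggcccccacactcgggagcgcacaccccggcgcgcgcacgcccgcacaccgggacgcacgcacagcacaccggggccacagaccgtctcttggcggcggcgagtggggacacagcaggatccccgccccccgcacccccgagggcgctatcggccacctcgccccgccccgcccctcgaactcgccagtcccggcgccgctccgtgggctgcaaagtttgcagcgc
Tyw1: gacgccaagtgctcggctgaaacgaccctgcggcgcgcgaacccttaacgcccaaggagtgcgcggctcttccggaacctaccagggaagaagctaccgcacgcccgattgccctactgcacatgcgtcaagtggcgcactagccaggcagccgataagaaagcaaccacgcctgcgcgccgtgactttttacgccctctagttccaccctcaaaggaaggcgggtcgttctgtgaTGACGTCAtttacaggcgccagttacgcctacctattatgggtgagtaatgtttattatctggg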

How the data were processed

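Stromal cells were sorted singly into plates and sequenced as full-length cDNA without molecular identifiers. By the paper's methods and the processing notes, the authors aligned to GRCm38.p4 using GSNAP, made per-gene counts with HTSeq regardless of strand, removed low-quality cells and deposited the raw counts. Of 46078 table entries, 270 repeated symbols were summed, giving 45771 nuclear and 37 mitochondrial genes; 0 columns were left out. Each column was matched to its cell by title. Age, sorted population and cluster were taken from the labels.

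CPM were computed from summed nuclear counts. Intervals were exact at 95% (Poisson for counts, Clopper-Pearson for shares). A group without counts was set to 3 counts for folds. Log2 ratios used a pseudocount of 1 CPM, and all-gene shares were over genes with at least 100 counts in 5 cells. No doublets were called. The tools were scipy 1.17.1, numpy 2.4.6, matplotlib 3.10.9 and pandas 2.3.3 under Python 3.11.15, and the steps were tested on simulated data.

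The members and lists were chosen with earlier results of these data known. Genes named are the 10 members, those ranked next to them, the 2 most correlated with each, annotated overlaps, listed genes past a log2 ratio of 1, and markers. Alternatives were other normalizations, thinning, pseudocount, filters, ranges, clusters, sorted populations, and leaving out single cells or cells by hematopoietic or Y-linked counts. Sequences are from RefSeq.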

Additional observations from a re-analysis of the deposited data

Results flagged for a closer look

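Some genes had a shift past a log2 old over young ratio of 1 in another population that was opposite to their shift in MSC-L-like cells, with 1 sample on each side, so none of these differences was tested. *Gdf10*, higher in old MSC-L-like cells, had log2 ratios of -1.11 in OPr-like, -2.95 in AEC-like and -1.39 in the remaining endothelial cells. *Pigg*, lower in old MSC-L-like cells, had 2.67 in AEC-like and 1.56 in the remaining endothelial cells, and *Rassf5* had 3.32 in OPr-like and 1.64 in the remaining endothelial cells. *Pigg* in AEC-like cells and *Rassf5* in OPr-like cells kept their direction within each range that could be compared, whereas *Gdf10* did not in OPr-like cells. For *Rassf5* this rested on few old cells. In range 1, 2 of 14 old cells had a count, and 1 cell held 84.5% of the counts. In range 2, 3 of 25 old cells had a count, and 1 cell held 72.3%. Young OPr-like cells of range 1 had no *Rassf5* count. In AEC-like cells *Gdf10* had too few counts to show a direction in range 2 (2 in young, 4 in old) and range 3 (0 and 3), as in range 2 of the remaining endothelial cells (3 and 0), where range 3 was at 1.61. Of the young *Gdf10* counts of the remaining endothelial cells 1 cell held 84.7%, and without the cell with the most CPM in each age the ratio was -0.44 there and 0.013 in AEC-like cells. Without cells carrying hematopoietic markers *Gdf10* in OPr-like cells was at -0.67. In range 2 of the remaining endothelial cells *Pigg* was at -5.37, with no count in old and 99.4% of the young counts in 1 cell. *Rassf5* had no count there.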

How the results depend on the processing

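No paired analysis was possible because the replicate numbers in the labels count cells, not mice, and no test was made. In MSC-L-like cells the number of the 10 genes past a log2 ratio of 1 was 10 under 13 of 15 alternatives. It was 9 in M2 alone and 5 among cells without a Y-linked count, which are 3 young and 2 old cells. The 9 in M2 include *Traf1*, which had no count in young M2. It passed only by the pseudocount, as its lower bound is under that ratio. These numbers were largely fixed by choosing the genes in the same cells, with 1 direction in ranges 1 and 2 required, so they are no check of the shifts. In the cells without a Y-linked count *Poln* reversed to -0.99 and *Tubb6* to 3.64, with too few cells to weigh. Median-of-ratios size factors moved all genes by 0.04 on the log2 scale. The percent of all genes past the ratio was 9.93 as higher and 6.91 as lower with no filter, and 7.56 and 5.51 with at least 1000 counts. In the other populations the number of genes past 1 in the MSC-L-like direction was 1 in OPr-like cells without those with hematopoietic markers. *Snhg11* (1.06) came in, *Tyw1* (-0.79) dropped out and *Traf1* (-1.02) turned to the opposite direction. Of all genes 22.4% were then higher and 20.7% lower. Over all OPr-like cells, 1 old cell held 96.0% of the old *Snhg11* counts. The *Snhg11* ratio there was -0.69 without the highest cells, and 3.89 and -2.17 in ranges 1 and 2. The number of genes was also 1 in AEC-like cells in range 2, *Tubb6* (-1.75, all genes 15.5% and 15.0%), and in range 3, *Btbd3* (-1.57, all genes 30.1% and 18.1%). Other settings raised it: to 3 in OPr-like cells when thinned and in range 1 (all genes 22.8% and 37.9% in that range), to 4 in MSC-S-like cells in range 2 (10.6% and 14.1%), to 3 in AEC-like cells in range 1 (19.7% and 20.8%), and in the remaining endothelial cells to 5 with the smaller pseudocount, 4 when thinned, 4 in range 2 (23.1% and 29.7%) and 5 in range 3 (17% and 15.9%). In MSC-S-like cells it was 2 in range 1 (13.8% and 20.9%). In the opposite direction, where all MSC-S-like cells together had 0 genes, there were 2 in range 1 and 1 in range 2. These were *Traf1* (-4.54, no count in old) and *Pigg* (2.67, all old counts in 1 cell) in range 1, and *Rassf5* (1.32) in range 2. OPr-like cells in range 1 and AEC-like cells in range 3 had 3 genes each in the opposite direction. With the cell with the most CPM left out in each age, the number in the MSC-L-like direction was 4 in OPr-like and 2 in SEC-like cells. The 2 in SEC-like cells were *Btbd3* (-1.14) and *Tubb6* (-1.18), and *Traf1* (-1.67) was past the ratio in the opposite direction there. No share of all genes was computed for this setting, for thinning or for the smaller pseudocount, so these numbers have no background beside them. Within range 1, *Traf1* in OPr-like cells was at -5.34 and *Btbd3* in MSC-S-like cells at 0.30. Within range 2, *Gdf10* (0.33) and *Tyw1* (0.015) in OPr-like, *Gdf10* in AEC-like (0.12, from 2 and 4 counts) and *Pigg* in the remaining endothelial cells (-5.37, from 161 and 0 counts) reversed. Within range 3, *Gdf10* (0.61, from 0 and 3 counts), *Tyw1* (1.25) and *Tubb6* (2.72) in AEC-like cells and *Gdf10* in the remaining endothelial cells (1.61) reversed. The *Gdf10* counts in AEC-like cells of ranges 2 and 3 are too few to show a direction. Without the cell with the most CPM in each age, an alternative chosen after seeing the data, *Gdf10* in AEC-like cells was at 0.013 and *Snhg11* in SEC-like cells at -0.31. The cause of the other reversals was not tested. Leaving out the highest cell of each cluster, also chosen after seeing the data, reversed no M2 over M1 ratio past 1. Few cells per group and range limit all of these values.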
